A study of Homo sapiens with 6 samples.

Results

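Ferroptosis control genes were followed through a pooled CRISPR/Cas9 knockout screen of human triple-negative breast cancer (TNBC) cells treated with the EGFR kinase inhibitor erlotinib. The set comprised 10 genes, GPX4, SLC7A11, FTH1, FTL, ACSL4, LPCAT3, TFRC, NCOA4, ALOX15 and ALOX12, of 20664 target symbols in the count table. All 10 were found by an exact match of the symbol, and 55 single guide RNAs (sgRNAs) were listed for them, 4 for GPX4, 5 each for SLC7A11, FTH1 and FTL, and 6 each for the other genes. The sgRNAs were taken by symbol alone, with no cut on their counts. The genes were chosen with earlier results of these data known.

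Ferroptosis is an iron-dependent form of cell death in which peroxides of membrane phospholipids accumulate. GPX4, a selenoprotein, reduces these peroxides with glutathione, whose synthesis depends on cystine imported through SLC7A11, the light chain of system xc-. FTH1 and FTL, the heavy and light chains of ferritin, store iron in a form that does not feed peroxidation. On the promoting side, ACSL4 activates polyunsaturated fatty acids, LPCAT3 inserts them into phospholipids, TFRC imports transferrin-bound iron, NCOA4 delivers ferritin to the lysosome for degradation, and the lipoxygenases ALOX15 and ALOX12 oxygenate polyunsaturated fatty acids. In a knockout screen the sgRNA is the tag of the cell that carries it, so a count here reports reads of that tag and not expression of the gene. Whether the gene was cut in those cells was not measured.

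The cells were MDA-MB-231, an established human TNBC line, made to express Cas9 stably and transduced with GeCKO v2, a pooled lentiviral library with 1 sgRNA per virus. All cells had grown in medium with 100 nM sodium selenite, a selenium source, and had been selected with 1 µg/mL puromycin for 7 days before treatment. DMSO, the vehicle, was given for 7 days to the control group (3 libraries), and 10 µM erlotinib for 7 days to the treated group (3 libraries). The sgRNAs were amplified from genomic DNA of the cells that remained and were sequenced. Some label fields name RNA, mice and a murine line, and the protocol text describes the screen, which was followed. The table holds no expression, so the identity of the line could not be checked in it. Reverse primers differ between conditions, so condition and reverse primer cannot be told apart. Same-numbered libraries share a forward primer, and whether the numbers mark a pairing is not stated. The statistics section of the study describes its biological replicates in general as separate experiments with cultures prepared anew, and does not name the screen. For the screen it is not stated whether libraries of 1 condition represent separate cultures, so p-values measure the spread between libraries, which may be technical.

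Total counts were 1574743 to 4263494 in the DMSO and 1773235 to 3332895 in the erlotinib libraries. Counts are given as deposited, or as CPM, the usual scaling of counts to the library total. A count of 0 still allows up to 3 counts, which corresponds to 0.704 to 1.91 CPM in DMSO and 0.900 to 1.69 CPM in erlotinib libraries. No molecular identifiers are described and amplified reads can be copies of each other, so these limits describe counting error alone. The binomial intervals below treat the listed sgRNAs as independent, although sgRNAs of a gene share their target. They do not cover the spread between libraries. The DMSO libraries were sparse and overlapped little: 33.4% to 39.1% of the 106244 sgRNAs with a target had a count in each, and 7.50% had one in all 3. In the erlotinib libraries 1.77% to 2.05% had a count.

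The sgRNAs on which the results rest are shown first, each 5′ to 3′, with the 12 bases next to the PAM (the seed, where pairing with the target matters most) in capitals. Numbers follow the alphabetical order of the sequences of a gene. Of the 55 sgRNAs, 3 had a count in an erlotinib library, each in a different one:
ALOX15 sgRNA 4: tggaagtaCCGGAGTATCTG
NCOA4 sgRNA 4: gcatgagcCATCAAGTGCTC
LPCAT3 sgRNA 4: ggatactaTTACACTGCCAC

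The 4 sgRNAs with a count in every DMSO library were:
SLC7A11 sgRNA 1: acccagacTCGTACAAAAGC
TFRC sgRNA 5: tagatcagCATTCTCTAACT
ALOX15 sgRNA 6: tgtttctgGAACAGGCCCTG
ALOX12 sgRNA 5: gttccttcTCTCGATGCTTC

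GPX4, the gene with the fewest sgRNAs, is shown in full because a single sgRNA carried nearly all of its counts:
GPX4 sgRNA 1: agagatcaAAGAGTTCGCCG
GPX4 sgRNA 2: cacgcccgATACGCTGAGTG
GPX4 sgRNA 3: cgtgtgcaTCGTCACCAACG
GPX4 sgRNA 4: gcgcccacCGGTACTTGTCC

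FTH1 sgRNA 4 held all FTH1 counts of DMSO replicate 3:
FTH1 sgRNA 4: ctcctacgTTTACCTGTCCA

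FTH1 sgRNA 4 matched chr11:61967314-61967333 on the minus strand of GRCh38.p14, followed by TGG, in the RefSeq promoter window of LOC399900 and inside the span of FTH1. For no other of these sgRNAs is a position given, since the sequences used here were promoter windows only. Of the 55 sgRNAs, 3 pairs target overlapping bases on opposite strands. The capitals now mark the bases that the members of a pair share as reverse complements, 11 in the FTH1 pair, 11 in the TFRC pair and 16 in the ALOX15 pair:
FTH1 sgRNA 1: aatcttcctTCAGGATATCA
FTH1 sgRNA 5: tgttcacctTGATATCCTGA
TFRC sgRNA 3: ATCACTATAGAtccattcac
TFRC sgRNA 6: TCTATAGTGATtgtcagagc
ALOX15 sgRNA 2: CTATGCCGGTTCCAACaacc
ALOX15 sgRNA 3: GTTGGAACCGGCATAGagcg

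In each pair, 1 sgRNA had counts and the other had 0 in all 6 libraries. In DMSO replicates 1 to 3 the counts were 0, 67 and 0 for FTH1 sgRNA 1, 0, 28 and 34 for TFRC sgRNA 6, and 2, 0 and 12 for ALOX15 sgRNA 2. A shared target region thus did not go with shared detection in these pairs. No member sgRNA lay within 3 base differences of another sgRNA in the table, and the closest differed at 4 bases.

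Detection comes before abundance in libraries this sparse. In DMSO replicates 1 to 3, 24, 22 and 19 of the 55 sgRNAs had at least 1 count (43.6%, 40.0% and 34.5%), a mean of 39.4% ± 4.58 (SD, n = 3), against 35.7% ± 3.01 for all sgRNAs with a target. In each library the share of all sgRNAs lay inside the 95% Wilson interval of the member share. With 1 sgRNA each, the erlotinib libraries held 1.82% of the member sgRNAs (95% Wilson interval 0.322 to 9.61), against 1.95% ± 0.156 (SD, n = 3) of all. DMSO and erlotinib ranges did not overlap, for the members or for all sgRNAs. Non-targeting sgRNAs, which cut no gene, stood at 56.9% ± 4.40 in DMSO and 3.93% ± 0.504 in erlotinib (SD, n = 3 each).

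**Figure D1:**
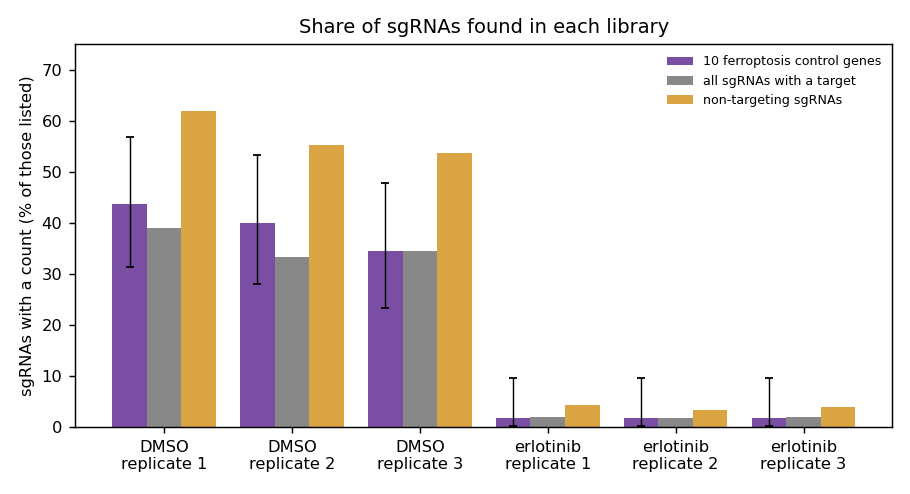
Share of listed sgRNAs with at least 1 count (percent, y axis) in each of the 6 libraries (x axis) for the 55 sgRNAs of the 10 ferroptosis control genes, all 106244 sgRNAs with a target and the 993 non-targeting sgRNAs; error bars are 95% Wilson intervals of the member share. The member bars stand beside those of all sgRNAs in each library, at 34.5% to 43.6% in DMSO and 1.82% in erlotinib.

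Over the 3 DMSO libraries, 18 of the 55 sgRNAs were in none, 13 in 1, 20 in 2 and 4 in all 3. For all sgRNAs with a target, 31.0% were in none, 38.5% in 1, 23.02% in 2 and 7.50% in 3. The members' shares were 32.7%, 23.6%, 36.4% and 7.27%, so more of them than of the table sat in 2 libraries and fewer in 1. In any of the 6 libraries 38 of the 55 had a count, and 17 had none anywhere. Mean GC content was 47.4% for the 37 member sgRNAs found in DMSO and 52.8% for the 18 not found, a wider gap than the 51.7% and 52.4% over all sgRNAs.

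By gene, 2 of 4 GPX4, 4 of 5 SLC7A11, 3 of 5 FTH1, 4 of 5 FTL, 5 of 6 ACSL4, 5 of 6 LPCAT3, 4 of 6 TFRC, 3 of 6 NCOA4, 4 of 6 ALOX15 and 3 of 6 ALOX12 sgRNAs had a count in a DMSO library. Every gene was thus represented by at least 2 sgRNAs over the DMSO libraries, which are the comparison group and no earlier time point. For GPX4, 1 of the 2 had a single count. Under erlotinib, LPCAT3, NCOA4 and ALOX15 had 1 sgRNA each and the other 7 genes had none.

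**Figure D2:**
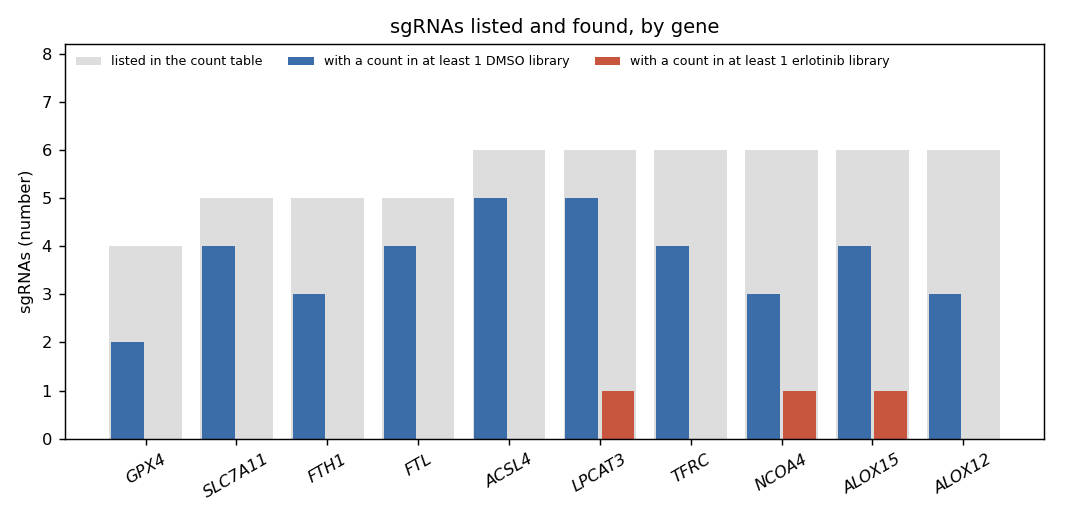
Number of sgRNAs (y axis) listed for each of the 10 genes (x axis, grey), with a count in at least 1 DMSO library (blue) and in at least 1 erlotinib library (red). ACSL4 and LPCAT3 had the most sgRNAs in DMSO, 5 each, and a red bar of 1 stands only at LPCAT3, NCOA4 and ALOX15.

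Among the protecting genes, GPX4 was the most thinly sampled. Its sgRNAs together gave 97 counts in DMSO replicate 1 (22.8 CPM), 79 in replicate 2 (35.8 CPM) and 0 in replicate 3, and 0 in each erlotinib library. sgRNA 2 supplied 96 and 79 of these counts, sgRNA 1 a single count, and sgRNAs 3 and 4 none. GPX4 was the only one of the 10 genes without a count in a DMSO library, so its groups overlapped at 0. Its mean of 19.5 ± 18.1 CPM (SD, n = 3) in DMSO corresponded to an erlotinib level at least 14.4-fold lower, taken against 3 counts per library.

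SLC7A11 had 148, 167 and 144 counts in DMSO (34.7, 75.7 and 91.4 CPM) and 0 in each erlotinib library. The DMSO counts came from different sgRNAs in different libraries. sgRNA 1 was present in all 3, with 47, 21 and 43 counts, sgRNA 5 in replicates 1 and 3, with 101 and 94, sgRNA 2 in replicates 2 and 3, with 30 and 7, and sgRNA 4 in replicate 2 alone, with 116. The groups did not overlap, and the erlotinib level was at least 49.6-fold lower than the DMSO mean of 67.3 ± 29.3 CPM (SD, n = 3).

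The ferritin genes also had counts in each DMSO library and none under erlotinib. FTH1 had 142, 67 and 188 counts in DMSO (33.3, 30.4 and 119 CPM), at least 44.96-fold above erlotinib. Replicate 3 was the high one, and its counts were all from sgRNA 4, which had 78 in replicate 1 and 0 in replicate 2. FTL had 205, 164 and 29 counts (48.1, 74.3 and 18.4 CPM), at least 34.6-fold above erlotinib, with sgRNAs 1 and 5 in replicates 1 and 2 and sgRNA 2 in replicates 1 and 3.

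Among the promoting genes, ACSL4 had the highest mean CPM of the 10 in DMSO, with 5 of 6 sgRNAs found, as for LPCAT3. It had 653, 200 and 83 counts in DMSO (153, 90.7 and 52.7 CPM) and 0 in each erlotinib library, at least 72.8-fold lower than the DMSO mean of 98.8 ± 50.7 CPM (SD, n = 3). In replicate 1, sgRNA 6 alone gave 338 of the 653 counts, and it was absent from the other DMSO libraries. sgRNAs 1, 3, 4 and 5 each had a count in 2 DMSO libraries.

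LPCAT3 had 324, 103 and 30 counts in DMSO (76.0, 46.7 and 19.1 CPM) and 0, 0 and 105 in erlotinib (0, 0 and 31.5 CPM). The groups overlapped, because erlotinib replicate 3 exceeded DMSO replicate 3. All 105 counts were of sgRNA 4, which in DMSO had only 8 counts, in replicate 3. It ranked 1562 of 2183 sgRNAs in its library, where the median count of a detected sgRNA was 341. The ratio of the erlotinib to the DMSO mean was 0.222.

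For the iron genes, TFRC had 220, 57 and 36 counts in DMSO (51.6, 25.8 and 22.9 CPM) and 0 in each erlotinib library, at least 24.6-fold lower. Its sgRNA 5, present in all 3 DMSO libraries, had 93, 29 and 1 counts. NCOA4 was the least abundant member, with 72, 55 and 2 counts in DMSO (16.9, 24.9 and 1.27 CPM) and 0, 46 and 0 in erlotinib (0, 25.9 and 0 CPM). The 46 counts belonged to sgRNA 4, which had 72, 6 and 0 in DMSO, and they ranked 1460 of 1910 in a library with a median of 197. The NCOA4 groups overlapped, with a ratio of means of 0.602.

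The lipoxygenases had unlike counts under erlotinib. ALOX12 had 359, 137 and 84 counts in DMSO (84.2, 62.1 and 53.3 CPM) and 0 in each erlotinib library, at least 49.0-fold lower. Its sgRNA 5 supplied 281, 97 and 55 of them and was the most evenly detected sgRNA of the gene. ALOX15 had 150, 133 and 204 counts in DMSO (35.2, 60.3 and 130 CPM) and 1723, 0 and 0 in erlotinib (850, 0 and 0 CPM). The 1723 counts were those of sgRNA 4, which had 0 counts in all 3 DMSO libraries, whereas sgRNA 6, with 148, 72 and 180 counts in DMSO, had 0 under erlotinib. sgRNA 4 ranked 308 of 2224 sgRNAs in erlotinib replicate 1, whose median was 133 counts.

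The erlotinib mean of ALOX15 was 3.78 times its DMSO mean, and this ratio rested on 1 sgRNA in 1 library. An sgRNA seen under erlotinib and in no DMSO library was rare over the table, at 1.17% of the sgRNAs with a target, and among the members it was 1 of 55 (1.82%). In DMSO libraries the highest CPM of any single sgRNA with a target was 636, below the 850 CPM of ALOX15 sgRNA 4. The 2 kinds of library are unlike in this. Erlotinib replicate 1 spread its counts over 2180 sgRNAs with a target, and the DMSO libraries over 35491 to 41534. The highest sgRNA with a target in erlotinib replicate 1 had 32613 counts, against the 1723 of ALOX15 sgRNA 4.

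**Figure D3:**
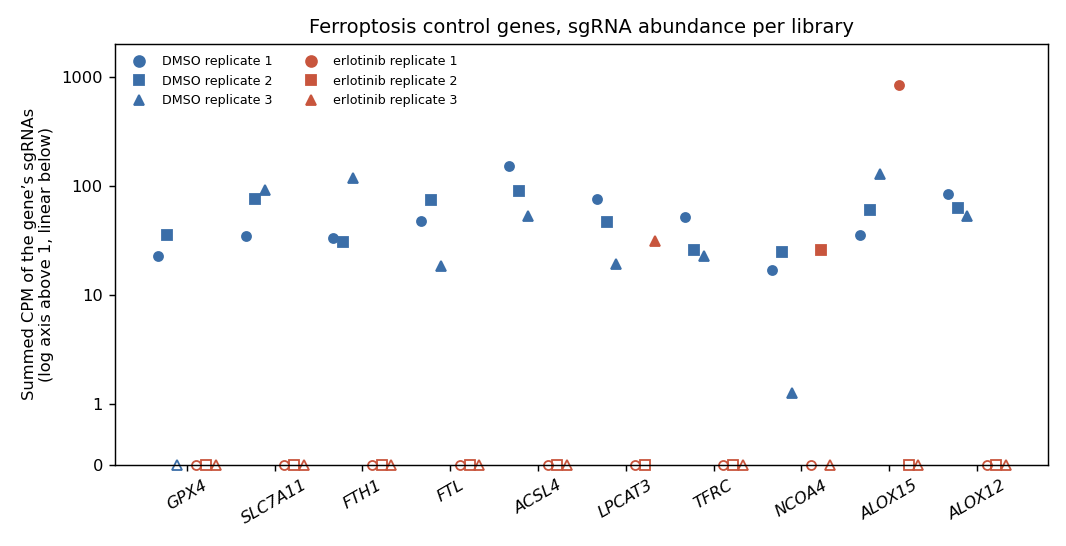
Summed CPM of the sgRNAs of each gene (y axis, logarithmic above 1 CPM and linear below) for the 10 genes (x axis) in 3 DMSO (blue) and 3 erlotinib (red) libraries; marker shape gives the replicate and open markers a count of 0. Erlotinib markers leave 0 only for LPCAT3 (31.5 CPM), NCOA4 (25.9 CPM) and ALOX15 (850 CPM), and GPX4 alone has a DMSO library at 0.

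In total, 7 of the 10 genes had 0 counts in all erlotinib libraries, against 75.6% of the 20409 symbols with a count. In 6 of the 10 (SLC7A11, FTH1, FTL, ACSL4, TFRC and ALOX12) every DMSO library lay above every erlotinib library, where 56.7% of all symbols with a count did so. A count in each DMSO library was found for 9 of 10 members and for 71.0% of all. The member counts under erlotinib are thus near those of the table as a whole. The summed CPM of the 55 sgRNAs was 556, 527 and 508 in DMSO and 850, 25.9 and 31.5 in erlotinib replicates 1 to 3, and without ALOX15 sgRNA 4 erlotinib replicate 1 held none of them.

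Levels between genes are set side by side as DMSO CPM per listed sgRNA, since genes differ in the number of sgRNAs. The order was ACSL4 (16.5 ± 8.45, SD, n = 3), SLC7A11 (13.5 ± 5.86), ALOX15 (12.5 ± 8.15), FTH1 (12.2 ± 10.1), ALOX12 (11.1 ± 2.65), FTL (9.39 ± 5.60), LPCAT3 (7.87 ± 4.75), TFRC (5.57 ± 2.63), GPX4 (4.88 ± 4.53) and NCOA4 (2.39 ± 2.01). The ranges of all neighbours in this order overlapped, so no step in it exceeded the spread between libraries. ACSL4 stood at the 91.4th percentile of the 18888 protein-coding symbols on this scale, GPX4 at the 20.4th and NCOA4 at the 5.86th. The median of the members was 10.2 CPM per listed sgRNA and that of all protein-coding symbols 8.49.

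The protecting genes GPX4, SLC7A11 and FTH1 were then set against the promoting genes ACSL4, LPCAT3 and TFRC within each library. In DMSO replicates 1 to 3, 6, 5 and 4 of 14 protector sgRNAs had a count and 10, 8 and 7 of 18 promoter sgRNAs, so the promoter share was the larger in each library (55.6% against 42.9%, 44.4% against 35.7% and 38.9% against 28.6%). In at least 1 DMSO library, 9 of 14 protector (64.3%) and 14 of 18 promoter sgRNAs (77.8%) were found. CPM per listed sgRNA did not keep 1 order. Protectors had 6.48, 10.1 and 15.1 and promoters 15.6, 9.07 and 5.26 CPM per listed sgRNA, so promoters were higher in replicate 1 and protectors in replicates 2 and 3.

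On the mean log2 CPM of the 3 genes, with a prior count of 2, protectors minus promoters came to -1.48, -0.14 and -0.51 in DMSO, a mean of -0.71 ± 0.69 (SD, n = 3). These differences are not corrected for the number of listed sgRNAs, which alone contributes -0.37. Per listed sgRNA, a comparison added after the values were seen, they were -1.11, 0.23 and -0.14, a mean of -0.34 ± 0.69 (SD, n = 3), and the sign differed between libraries. In erlotinib the uncorrected difference was 0, 0 and -1.78. The first 2 values are differences between counts of 0, and the third is LPCAT3 sgRNA 4. With 5 of 6 sums at 0 under erlotinib, a change of the difference with the drug could not be read from these libraries.

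**Figure D4:**
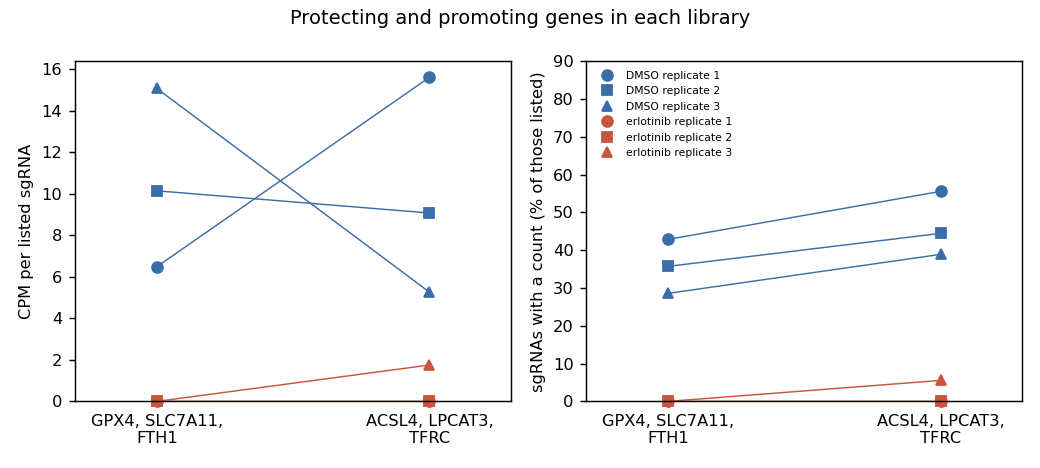
CPM per listed sgRNA (left) and the percentage of listed sgRNAs with a count (right) for GPX4, SLC7A11 and FTH1 against ACSL4, LPCAT3 and TFRC, with a line per library (DMSO blue, erlotinib red, marker shape the replicate). The DMSO lines cross in CPM per listed sgRNA and all slope up towards the promoters in detection, and 2 of the 3 erlotinib libraries lie at 0 on both sides.

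For single sgRNAs, erlotinib was compared with DMSO in edgeR over all 74555 sgRNAs that have a target and a count, 38 of them members. With the quasi-likelihood test no member and no sgRNA of the table passed an adjusted p of 0.05, and the smallest adjusted p of a member, 0.0998, was also the smallest of the table. At an unadjusted p under 0.05 this test had 13 member sgRNAs lower (background 31.2%) and 1 higher (background 0.699%) in erlotinib. The likelihood ratio test, named in the methods of the study, had 17 of 38 lower at an unadjusted p under 0.05, where 36.6% of all tested sgRNAs were, and 1 higher, where 0.840% were. Its smallest adjusted p among members was 0.0755. DESeq2's Wald test, run as an alternative, gave an adjusted p to 25 of the 38, of which 20 were lower and none higher at an adjusted p under 0.05, where 77.7% of all sgRNAs with an adjusted p were lower. Log2 fold changes were below 0 for 36 of the 38, and for 95.04% of all tested sgRNAs, with medians of -8.46 and -8.34. These signs are no test outcome, because an sgRNA with counts in DMSO alone must fall below 0. Of the 38 members, 37 had a count in DMSO and 2 in both conditions. Over the 74555 tested sgRNAs these numbers were 73312 and 4429.

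The 17 sgRNAs comprised all 5 tested sgRNAs of ACSL4, 3 of 4 of SLC7A11, 2 of 4 of FTL, 2 of 5 of LPCAT3, and 1 each of GPX4, FTH1, TFRC, ALOX15 and ALOX12. Each of the 17 had 0 counts in every erlotinib library, so these calls follow the DMSO counts alone. Shares are of tested sgRNAs, and those without any count, such as ACSL4 sgRNA 2, are left out. NCOA4 had none. The smallest unadjusted p by the likelihood ratio test in edgeR was 0.00421, for FTH1 sgRNA 4. The only member sgRNA higher in erlotinib at this level was ALOX15 sgRNA 4, with a likelihood ratio p of 0.0136 in edgeR and an adjusted p of 0.0794. It was found in 1 of 3 erlotinib libraries. LPCAT3 sgRNA 4 and NCOA4 sgRNA 4 had unadjusted p-values of 0.799 and 0.806 in the same edgeR test. Of the 17 sgRNAs, 4 had a count in 3 DMSO libraries, 11 in 2 and 2 in 1.

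With counts summed over the sgRNAs of a gene, more reads stood behind each value. Of the 10 genes, 7 were depleted in erlotinib at an adjusted p under 0.05 in edgeR's quasi-likelihood test. None was enriched, nor was any at an unadjusted p under 0.05, by the likelihood ratio test or by DESeq2's Wald test. Over all 20409 symbols 69.2% were depleted and 0% enriched, so depletion of a member was the common outcome of the screen. The 7 were GPX4, SLC7A11, FTH1, FTL, ACSL4, TFRC and ALOX12, those with 0 counts in each erlotinib library. Their fitted log2 fold changes depend on the prior count and the scaling and are no bounds. The folds of at least 14.4 to 72.8 above are given in their place. They bound the erlotinib side alone. The DMSO mean enters without its spread between libraries, and the CPM without scaling factors.

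Adjusted p-values by this edgeR test were 0.00385 for SLC7A11, FTH1, ACSL4 and ALOX12, 0.00389 for FTL and 0.00463 for TFRC. GPX4 stood closest to the threshold, with a fitted log2 fold change of -10.61 and an adjusted p of 0.0400. Its call was lost on leaving out DMSO replicate 1 (adjusted p = 0.0915), DMSO replicate 2 (0.112), or erlotinib replicate 1, 2 or 3 (0.0619, 0.0598 and 0.0626), all in edgeR, and was kept without DMSO replicate 3 (0.0159), the library in which GPX4 has no count. With library totals in place of the scaling factors it was lost as well (adjusted p = 0.0573).

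The 3 genes with a count in an erlotinib library were not called. LPCAT3 had a log2 fold change of -5.07 ± 2.45 (SE, edgeR adjusted p = 0.104), NCOA4 of -3.51 ± 2.92 (adjusted p = 0.314) and ALOX15 of -0.82 ± 2.81 (adjusted p = 0.810). Each value turned on 1 library. Without erlotinib replicate 3, LPCAT3 was depleted (adjusted p = 0.00565 in edgeR), and without erlotinib replicate 1, ALOX15 was depleted, with a log2 fold change of -12.31 (adjusted p = 0.00515). Without erlotinib replicate 2, NCOA4 had a log2 fold change of -10.10 and an adjusted p that narrowly missed the threshold. The sign for ALOX15 also turned with scaling. It was 0.74 with TMM, 1.94 with library totals and 3.69 with DESeq2 size factors, none of them called, while the median over all genes moved between -11.28 and -9.32. Relative to that median ALOX15 was higher under each scaling.

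The median log2 fold change was -11.62 over the 10 members and -11.28 over all genes tested. With genes at 0 set to their bound and unscaled CPM, the medians were -4.87 for the members and -4.68 for the 20321 symbols above the floor in at least 1 group. On both scales the members thus had about the median of the table.

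Beyond the 10 genes, 49 others of ferroptosis biology were examined in 7 lists, and 48 had a count. Of these, 37 were depleted, none was enriched and 11 were not called, beside the 69.2% of all tested symbols that were depleted. The median log2 fold change was -11.22, and -11.28 over all genes. The counts for the single lists below stand against the same 69.2%. For SCD, the stearoyl-CoA desaturase, no sgRNA had a count in any library, and it was not tested. A count of 0 in each erlotinib library was also found for 37 of the 48, and for 75.6% of all symbols with a count.

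In the cystine and glutathione list 6 of 8 genes were depleted, where 69.2% of all were. SLC3A2, the heavy-chain partner of SLC7A11, had 145, 22 and 100 counts in DMSO and 0 in erlotinib, at least 26.4-fold lower (edgeR adjusted p = 0.00561), and CTH, cystathionine gamma-lyase, had 235, 169 and 46 and 0, at least 39.5-fold lower. CBS, which starts the transsulfuration of homocysteine, had 425, 52 and 13 counts in DMSO and 1, 3418 and 0 in erlotinib and was not called (adjusted p = 0.768). Like ALOX15, CBS owed its erlotinib value to 1 library.

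Of the lipid protection genes that work without GPX4, 4 of 5 tested were depleted (69.2% of all). DHODH, which reduces ubiquinone in mitochondria, was at least 71.8-fold lower and GCH1, which starts tetrahydrobiopterin synthesis, at least 52.3-fold lower. On the lipid peroxidation side 6 of 7 were depleted, among them FADS2, a fatty acid desaturase, at least 79.9-fold lower, and SAT1, a polyamine acetyltransferase, at least 46.3-fold lower. All 5 genes of the lipoxygenase list were depleted. They were 4 further genes of the lipoxygenase family, among them ALOX15B, at least 45.4-fold lower, and ALOX5AP, which encodes the activating protein of 5-lipoxygenase and no lipoxygenase, at least 52.6-fold lower.

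Iron handling had the smallest share of the 7 lists, with 6 of 12 depleted and 6 not called (69.2% of all depleted). IREB2, an iron regulatory protein that binds ferritin and TFRC transcripts, was at least 44.3-fold lower and TF, transferrin, at least 37.5-fold lower (adjusted p = 0.00385 each in edgeR). Of the 6 not called, 5 had a count in 1 erlotinib library. Those with the highest erlotinib to DMSO ratio of means, chosen after their values were seen, were ACO1, the other iron regulatory protein, and HMOX1, heme oxygenase. ACO1 had 290, 194 and 64 counts in DMSO and 4227, 0 and 0 in erlotinib, a ratio of 10.6 in CPM without scaling factors. Its log2 fold change fitted with the factors was 0.60 ± 3.04 (SE, edgeR adjusted p = 0.873). HMOX1 had 247, 160 and 30 in DMSO and 0, 514 and 0 in erlotinib, a ratio of 1.94 in the same CPM. The fitted log2 fold change of HMOX1 had the other sign, at -1.82 ± 2.63 (SE, edgeR adjusted p = 0.562).

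All 6 genes of selenocysteine insertion, the step that makes GPX4 a selenoprotein, were depleted (69.2% of all), including TRNAU1AP, at least 39.4-fold lower, and SECISBP2, at least 36.8-fold lower. Among the regulators 4 of 5 were depleted. NFE2L2, the NRF2 gene, was at least 26.2-fold and BAP1, a deubiquitinase, at least 26.3-fold lower. ATF4, which drives transcription of SLC7A11, had 29, 52 and 183 counts in DMSO and 195, 0 and 3057 in erlotinib, with overlapping groups and an unadjusted p of 0.989 in edgeR. The difference between lists was not tested.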

How the data were processed

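sgRNAs were amplified from genomic DNA of 6 libraries, 3 with DMSO and 3 with erlotinib, grouped by their labels. The authors deposited whole-number counts per sgRNA, not normalized, with sgRNAs at 0 counts kept. The count table lists 107237 sgRNAs, fewer than the study gives for the library, and the reason is not stated. Shares and levels per listed sgRNA are therefore over the count table and not over the library. The counting program is not given in the sources used here. The members, lists and tests were chosen with earlier results of these data known. Named from the wider lists were the 2 genes with the smallest p in the summed-count test and every gene with a count in at least 2 erlotinib libraries.

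Non-targeting sgRNAs were removed. The low-count criterion of the study, a count below the library median, removed no further sgRNA, as each median was 0. Upper-quartile factors (quantile 0.99) were used in edgeR 4.0.16 (R 4.3.3, limma 3.58.1) with its quasi-likelihood and likelihood ratio tests, erlotinib against DMSO, and Benjamini-Hochberg adjustment over the whole table. The common dispersion was 9.74 for sgRNAs and 3.10 for genes. A fold against 0 counts was the DMSO mean CPM over 3 counts in each library (1.36 CPM on average in erlotinib). It takes in no spread between DMSO libraries. Standard errors are the fitted log2 fold change divided by the square root of F. They are approximate, because the fitted fold change depends on the prior count. Python 3.11.15 (pandas 2.3.3, numpy 2.4.6) gave CPM and detection, and matplotlib 3.10.9 the figures. The binomial intervals are 95% Wilson intervals. Promoter windows and gene spans were those of RefSeq on GRCh38.p14, where all 10 symbols matched. The alternatives were TMM, library totals, DESeq2 (1.42.0) size factors and its Wald test, 2 count filters, a block for the replicate number, fits without each library in turn, other detection minimums, non-targeting scaling, another prior count and, added after the data were seen, levels per listed sgRNA. The edgeR fits were also run on simulated counts, whose outcome is not given here. For sgRNAs these runs used only those with at least 10 counts in 2 libraries and a dispersion below 9.74. They therefore do not cover the sgRNA tests of these data.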

Additional observations from a re-analysis of the deposited data

How the results depend on the processing

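For the 10 genes, the count of 7 depleted in the summed-count test came to 6 to 8 under other scalings, filters and tests. On leaving out a library it came to 6 to 7, and with the replicate number as a block it was 0. Over all symbols, 14113 of 20409 became 10262 (of 14214 with filterByExpr) to 15776 (of 18561 with DESeq2's Wald test). The table had 11303 to 13693 on leaving out a library, and 0 of 20409 with the block. GPX4 was not kept by filterByExpr and has no value there. Whether the replicate numbers pair the samples could not be settled. Deviations of same-numbered libraries correlated at -0.0033 to 0.0041 over sgRNAs and -0.0013 to 0.011 over genes. Not every library correlated best with its own number. In libraries this sparse the check could hardly show a pairing. Even the DMSO libraries correlated with each other at only -0.13 to -0.098 in log2 counts of sgRNAs. Among the sgRNAs, the adjusted quasi-likelihood count of 0 became 3 (of 3 tested) with filterByExpr and 16 (of 20 tested) with at least 10 counts in 2 libraries. It became 20 (of 25 with an adjusted p) with DESeq2's Wald test. On leaving out a library it ranged from 0 to 9, with 7 of 33 without DMSO replicate 2 and 9 of 36 without DMSO replicate 3. The table as a whole went from 0 to 5714 of 7543, 21861 of 29298 and 29531 of 38005 under the first 3 of these. Without DMSO replicates 2 and 3 it had 12186 of 63006 and 14276 of 62325. The unadjusted likelihood ratio count of 17 of 38 became 3 (of 3 tested) with filterByExpr and 2 of 38 with the replicate block. It ranged from 9 to 17 on leaving out a library, with 9, 10 and 9 without erlotinib replicates 1, 2 and 3. Over the table, 27301 of 74555 became 5768 of 7543 with filterByExpr and 4149 of 74555 with the block. Without erlotinib replicates 1, 2 and 3 the table had 17249 of 74178, 17631 of 74223 and 15567 of 74133. A minimum of 10 counts lowered the DMSO detection share to 33.3%. For single genes, 120 of 139 alternative values kept direction and call. ALOX15 turned to 0.74, 1.94 and 3.69 with TMM, library totals and DESeq2 size factors, and LPCAT3 was called with DESeq2's Wald test (adjusted p = 0.0445). The filters also left fewer sgRNAs to test, and the cause of these shifts was not tested. Protectors minus promoters moved by less than 1 SD, from -0.32 to -0.99, with -0.34 per listed sgRNA. With 1 of 55 sgRNAs per erlotinib library, sparse detection limits each comparison.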
